A study of Mus musculus with 17 samples.

Results

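Ribosome footprints, the stretches of mRNA that a translating ribosome shields from nuclease, were compared between Mael-/- and wild-type mouse testis. The comparison was made of the libraries whose titles name ribosome profiling, which are 4 of the 17 libraries in the series, with 2 from each genotype. Only transcripts listed with a coding size entered it, and these were 18286 of the 37991 transcripts listed. The other 19705 transcripts held 0 footprint counts. All 4 libraries came from testis of the 129SvJae strain, without immunoprecipitation, and the genotypes are wild type and Mael-/-. The labels used here give no age, no description of the Mael allele and no number of animals. Whether libraries a and b of a genotype are from different animals is not stated, so each p-value reflects the spread between these particular libraries, which could be technical. The 4 mRNA libraries of the same genotypes, 2 each, gave the mRNA value set beside each footprint change, and the remaining libraries of the series hold small RNA and immunoprecipitated RNA.

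Mael encodes Maelstrom, a germ cell protein with roles in transposon silencing and in the piRNA pathway, and male mice without it are sterile with a block in spermatogenesis. Ribosome profiling sequences footprints, so a transcript's footprint count reflects both how much of its mRNA is present and how many ribosomes each molecule carries. In the testis these often part ways, because many mRNAs of meiotic and haploid germ cells are stored in ribonucleoprotein particles and translated later. The transcripts are given by Ensembl transcript ID only. None of the IDs matched a table of gene names used here, so Mael itself, cell type markers and pathways were not analysed here, and transcripts are described by coding size, level and change.

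Footprint totals were 5009051 counts in wild-type library a, 3291588 in wild-type b, 2735792 in Mael-/- a and 1668197 in Mael-/- b. Both Mael-/- libraries were therefore shallower than both wild-type libraries, and a floor of 3 counts corresponds to between 0.599 CPM (footprint counts of a transcript scaled to a common library total) in wild-type a and 1.8 CPM in Mael-/- b. Floors cover counting error alone, since reads that carry no molecular identifier may be copies of 1 molecule. Footprints were counted on 65.9% to 70.6% of the transcripts with a coding size. Libraries of a genotype differed by more than sampling noise, with a chi-square per degree of freedom of 4.45 in wild type and 3.3 in Mael-/-. Mael-/- b stood apart in one respect. It held 36 transcripts with at least 10 counts at over 8 times the CPM of every other footprint library, against 0 in Mael-/- a, 4 in wild-type a and 14 in wild-type b. These 36 summed to 1010 CPM in Mael-/- b and to between 7.39 and 14.9 CPM in the other footprint libraries, and mRNA library b of Mael-/- held 427 CPM of them against 6.83 to 14.1 CPM in the other mRNA libraries. Only 1 of the 36 entered the test, and leaving out all such transcripts of all libraries gave 1104 higher and 1988 lower.

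Losses of footprints by over 4-fold were far more common than gains of that size in Mael-/- testis. With edgeR's quasi-likelihood test at an adjusted p under 0.05, 1988 of the 9783 transcripts tested were lower, which is 20.3 percent, and 1102 were higher, which is 11.3 percent. In bulk tissue, fewer cells of a type and less RNA per cell cannot be told apart. The genotypes did not overlap in CPM for any of the 3090 transcripts that passed, which are 31.6 percent of those tested. Over all transcripts tested, 71.3 percent did not overlap, so the absence of overlap alone does not set these apart. The transcripts that fell had a median log2 fold change of -1.18, a 2.27-fold decrease, with quartiles at -2.11 and -0.70. Those that rose had a median of 0.63, a 1.54-fold increase, with quartiles at 0.50 and 0.80. The median over all tested was 0.06, with quartiles at -0.44 and 0.42. The balance of the counts depended on the scaling and on the test. Higher transcripts made up 35.7% of calls with TMM, 49.8% with library totals and 57.5% with upper quartile scaling, which moved the median of all transcripts up by 0.11 and 0.18 on the log2 scale. DESeq2 gave 290 higher and 1381 lower, or 17.4% higher, and a fit over the 8 footprint and mRNA libraries gave 100 and 967, or 9.37% higher. Without wild-type library b, 690 transcripts were higher and 1630 were lower.

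The asymmetry lay in the size of the change. Among the transcripts that fell, 1136 did so by over 2-fold, 554 by over 4-fold, 134 by over 8-fold and 19 by over 16-fold. Of those that rose, 157 did so by over 2-fold, 20 by over 4-fold, 5 by over 8-fold and 1 by over 16-fold. That 1, of 608 codons, rests on a single library, with 1.8 and 3.95 CPM in wild type, 4.75 CPM in Mael-/- a and 148.1 CPM in Mael-/- b. The background for a change of over 4-fold that passed was 5.66 percent lower and 0.204 percent higher. The count of 554 ranged from 403 to 723 when each library in turn was left out. The count of 20 moved by more in relative terms, from 8 without Mael-/- b to 38 without wild-type a, with 34 without Mael-/- a and 35 without wild-type b. With the transcripts divided into 5 classes of about equal number by wild-type footprint level, all 20 were in the lowest class, which ran from 0.2 to 8.34 CPM. The 554 numbered 96, 110, 121, 105 and 122 from the lowest to the highest class. These classes use the same wild-type libraries as the fold change. A transcript with too few wild-type counts for the filter enters the test only through Mael-/-, and one with too few Mael-/- counts only through wild type. Both counts are therefore a description.

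**Figure D1:**
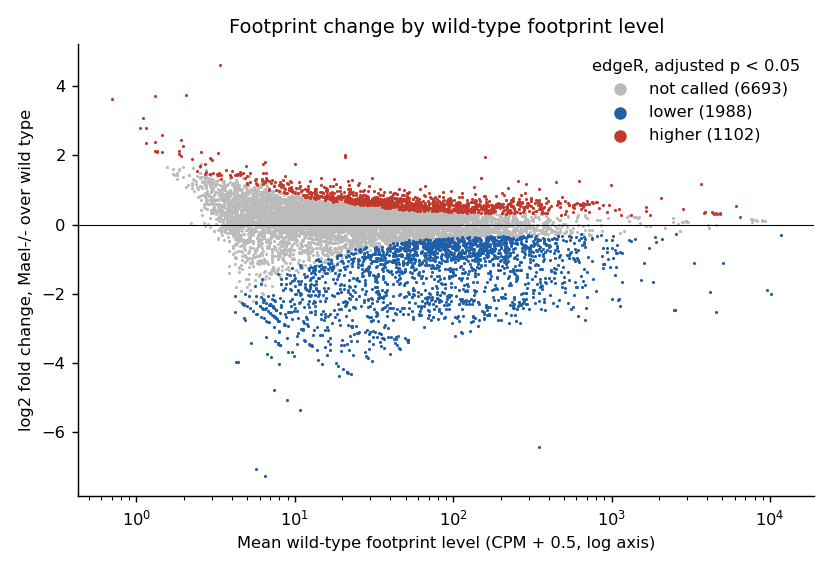
The log2 fold change of footprints, Mael-/- over wild type, is plotted against the mean wild-type footprint level (CPM with 0.5 added, log axis) of each of the 9783 transcripts tested, with transcripts that passed the test in colour. Transcripts that fell reach far below the rest at most levels, whereas the 20 that rose by over 4-fold lie at low levels.

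The shares of the footprint pool that these sets took differed between the genotypes. The transcripts that fell took 33.5% of footprints in wild-type a and 34.4% in wild-type b, and 18.8% in Mael-/- a and 16.7% in Mael-/- b. Transcripts that rose took 18.7% and 18.9% in wild type, and 28.5% and 30% in Mael-/-. Those that did not pass took 47.5% and 46.3% in wild type and 52.3% and 52.8% in Mael-/-, and the 8503 not tested took under 0.5% in each library. As means, the share of the transcripts that fell went from 34% ± 0.608 (SD, n = 2) to 17.8% ± 1.52, and that of the transcripts that rose from 18.8% ± 0.143 to 29.3% ± 1.04. The sets were chosen by this contrast, so the shares are a description, and 2 libraries against 2 allow no exact permutation p below 0.333. In the mRNA libraries, the set of transcripts with lower footprints took 46.4% and 46.9% of counts in wild type and 27.6% and 23.8% in Mael-/-. The set with higher footprints took 9.05% and 8.74% of mRNA counts in wild type and 19% and 20.9% in Mael-/-. It thus took a larger share of footprints than of mRNA in both genotypes.

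**Figure D2:**
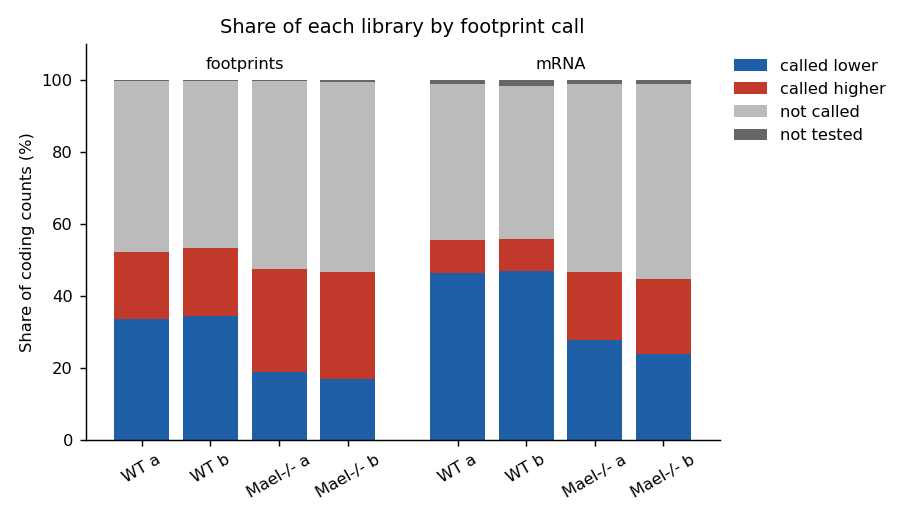
The share of each library's counts, in percent, is drawn as stacked bars for the sets of transcripts that fell, rose, did not pass or were not tested in footprints, in each footprint and mRNA library. The set that fell is smaller in both Mael-/- libraries than in both wild-type libraries in footprints and in mRNA alike.

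The loss was deeper in Mael-/- b than in Mael-/- a. For the transcripts that fell, the median log2 CPM ratio to wild type was -0.97 in Mael-/- a and -1.15 in Mael-/- b, while over all transcripts tested it was 0.15 in both. Of the 1988 that fell, 1499 were lower in Mael-/- b than in Mael-/- a, compared with 3296 of the 6693 that did not pass. The 554 transcripts that fell by over 4-fold took 6.01% and 7.05% of wild-type footprints, 1.69% in Mael-/- a and 1.01% in Mael-/- b. Their mRNA shares were 11.8% and 12.5% in wild type, 4.76% in Mael-/- a and 2.48% in Mael-/- b, so library b was again the lower of the pair. What sets the Mael-/- libraries apart was not tested.

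By the rule for named transcripts, which ranks those that passed by their smallest ratio over the pairs of libraries, the strongest loss was of ENSMUST00000038782, with a coding size of 435 codons. It held 337.8 and 357.9 CPM of footprints in wild-type a and b, and 3.655 and 5.395 CPM in Mael-/- a and b. Every Mael-/- library was therefore far below every wild-type library, and the log2 fold change was -6.43 ± 0.199 (SE, adjusted p = 1.56e-08 with edgeR). Its mRNA was 2511 and 2438 CPM in wild type and 6.787 and 1.453 CPM in Mael-/-, a log2 fold change of -9.44. The footprint change was the smaller by 3.07 ± 0.780 (SE) on the log2 scale, a difference that did not pass (edgeR adjusted p = 0.602). Only 10 and 9 footprint counts remained in the Mael-/- libraries. Without gene names, whether this is a transcript of Mael itself could not be checked.

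Next in this direction was ENSMUST00000060330, with a coding size of 122 codons. Footprints were 45.32 and 44.66 CPM in wild type and 4.386 and 3.597 CPM in Mael-/-. The genotypes lay far apart and the libraries within each close together, with a log2 fold change of -3.56 ± 0.278 (SE, adjusted p = 6.16e-06 with edgeR). Its mRNA was 51.07 and 44.56 CPM in wild type and 22.8 and 7.989 CPM in Mael-/-, a log2 fold change of -1.90 (edgeR adjusted p = 0.0356). Here the footprint change was the larger by 1.62 on the log2 scale, which also did not pass (edgeR adjusted p = 0.602).

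The first transcript by the same rule among those that rose was ENSMUST00000172743, of 782 codons. It had 5 and 2 footprint counts in wild type, or 0.998 and 0.608 CPM, and 31 and 23 counts in Mael-/-, or 11.33 and 13.79 CPM. The log2 fold change was 3.73, and that of its mRNA was 1.91. The second was ENSMUST00000166105, of 166 codons, with 14 and 1 counts in wild type and 58 and 52 in Mael-/-. That is 2.795 and 0.304 CPM against 21.2 and 31.17 CPM, a log2 fold change of 3.75. Its log2 fold change was 6.07 without wild-type a and 3.07 without wild-type b. Both entered the test only through the Mael-/- libraries, in which they are high, so their values are a description with no p given, and their folds rest on few wild-type counts. The 2 named transcripts that fell passed in 16 of 16 alternatives of scaling, filter, test and libraries.

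The transcripts with the most footprints moved in both directions. Of the 100 with the highest wild-type CPM, 35 fell, 18 of them by over 2-fold, 22 rose, 1 of them by over 2-fold, and 43 did not pass. The highest class of wild-type footprint level, in which they lie, had 41.7% lower and 18.3% higher, above the 20.3 and 11.3 percent of all tested. The median log2 fold change was 0.08 for the 100 and -0.21 for that class, against 0.06 for all transcripts tested. Of the 100, 11, 12, 14 and 10 share coding sizes of 104, 127, 131 and 137 codons, many with nearly the same counts. These groups hold 11, 1, 0 and 0 of the rises and 0, 0, 0 and 1 of the falls. The 0.08 is therefore weighted by copies. In all, 79 of the 100 were also among the 100 with the highest Mael-/- CPM. The most abundant, with a coding size of 128 codons, held 12180 and 11280 CPM in wild type and 10340 and 10210 CPM in Mael-/-. These did not overlap but lay close, with a log2 fold change of -0.30 (adjusted p = 0.00697 with edgeR). The second, of 451 codons, held 9854 and 10560 CPM in wild type and 3209 and 2232 CPM in Mael-/-, a log2 fold change of -2.02. The third, also of 451 codons, held 9252 and 9894 CPM and then 3218 and 2346 CPM, a log2 fold change of -1.89. In mRNA these 2 transcripts changed by -1.71 and -1.57 on the log2 scale. Further down the list, a transcript of 4732 codons fell by 2.53 on the log2 scale and 3 transcripts of 192 codons by 2.48. The 1 that rose by over 2-fold, of 515 codons, went from 3649 ± 1060 CPM (SD, n = 2) to 8855 ± 691 CPM.

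Several of these abundant transcripts share a coding size and nearly the same counts. The sources used here do not give how reads with several matching transcripts were assigned, so the copies cannot be read as independent. The 11 transcripts of 104 codons all rose, by 0.31 to 0.45 on the log2 scale, and all 11 also passed with RLE, library total and upper quartile scaling. Together they took 4.62% and 4.64% of footprints in wild type and 5.78% and 6.87% in Mael-/-. Their mRNA log2 fold changes were 0.61 to 0.76, and none of these passed. Of the 12 of 127 codons, 1 rose, and their joint share was 8.21% and 8.02% in wild type and 9.51% and 9.45% in Mael-/-. That call turned on the scaling, with 0 of the 12 higher under RLE, 7 under library totals and 9 under upper quartile scaling. The 14 of 131 codons gave 0 calls with TMM and RLE, 1 higher with library totals and 10 higher with upper quartile scaling. Of the 10 of 137 codons, 1 was lower and 0 were higher with TMM and with RLE, while 7 were higher with library totals and 8 with upper quartile scaling, and 9 of the 10 were higher in mRNA.

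Footprints and mRNA were then set side by side, which addresses whether the footprint changes go beyond those of the mRNA. In mRNA, 1979 of 11181 transcripts tested were lower, 17.7 percent, and 1696 were higher, 15.2 percent, with edgeR, together 32.9 percent. Each of these calls lay near the threshold, since the smallest adjusted p in mRNA was 0.033, and with wild-type mRNA library a or b left out 0 passed, with 3290 and 2356 transcripts at an unadjusted p under 0.05. Without Mael-/- mRNA library b, 693 were higher and 1404 lower. Higher transcripts made up 46.1% of mRNA calls with TMM, 27.4% with RLE and 69.1% with library totals, and DESeq2 found 610 higher and 2308 lower. Of the 1979 transcripts with lower footprints that were also tested in mRNA, 1159 were lower in mRNA, or 58.6%, and 819 did not pass there, or 41.4%. The 819 had smaller changes, with a median log2 fold change of -0.72 in footprints and -0.48 in mRNA, against -1.79 and -1.69 for the 1159. Of the 1092 with higher footprints tested in mRNA, 686 were higher in mRNA, or 62.8%, with medians of 0.63 in footprints and 1.16 in mRNA. A further 403 did not pass in mRNA and 3 were lower.

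The medians of the footprint and mRNA changes differed in size by set. Among the 1092 transcripts that rose, the median log2 fold change was 0.62 in footprints and 1.07 in mRNA, and the footprint change was the smaller of the pair in 81%. For the 151 of them that rose by over 2-fold in footprints the order was the other way, with medians of 1.27 and 1.18 and the footprint change the smaller in 41.1%. Among the 1979 that fell the medians were -1.17 and -1.20, with the footprint change the smaller in 32.7%. For the 545 that fell by over 4-fold the medians were -2.48 in footprints and -2.04 in mRNA, 486 of them were lower in mRNA, and the footprint change was the smaller in 9.91%. These sets were chosen on their footprint change, so the medians are a description. Over all 9627 transcripts tested in both assays the medians were 0.06 and 0.24, and the footprint change was the smaller in 69.4%. Scaling by library totals moved the mRNA median by 0.28 and RLE scaling moved it by -0.15. In the model over all 8 libraries, the footprint change differed from the mRNA change in 0 of 11427 transcripts at an adjusted p under 0.05 with edgeR, which is 0 percent. This does not show that the changes were equal, since even a difference of -3.04 ± 0.455 (SE) on the log2 scale did not pass. At an unadjusted p under 0.05, 915 transcripts differed, and DESeq2, with an adjusted p for 7321 transcripts, found 49 with a higher and 1 with a lower footprint change. Leaving out mRNA library a of Mael-/- gave 146 and 32 with edgeR.

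**Figure D3:**
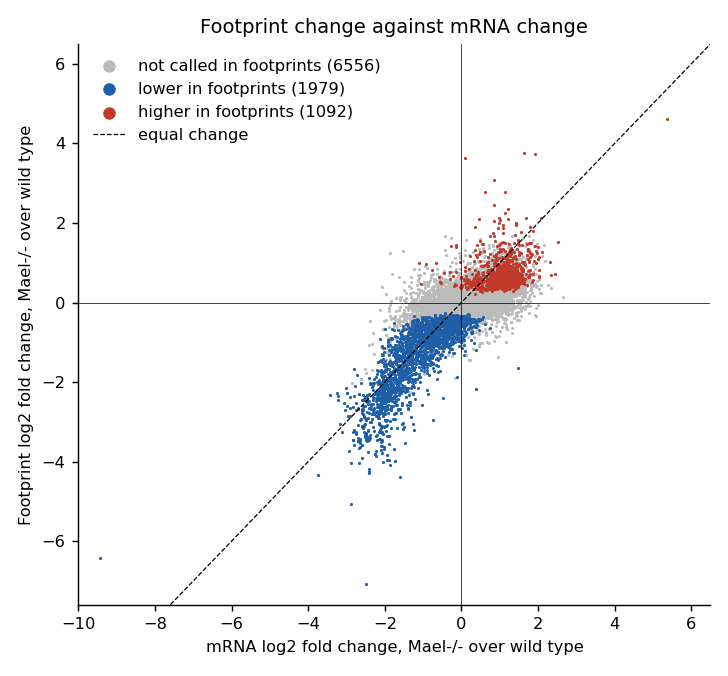
The log2 fold change in footprints is plotted against that in mRNA, Mael-/- over wild type, for the 9627 transcripts tested in both assays, with a dashed line at equal change. Most points lie in the quadrants where both changes have the same sign, with medians of 0.62 in footprints and 1.07 in mRNA among all transcripts whose footprints rose and of 1.27 and 1.18 among the 151 that rose by over 2-fold.

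Transcripts were next divided into 5 classes of about equal number by features that the choice of libraries did not use. By coding size, the share that fell was 19.4% in the class of smallest size, of 26 to 199 codons, then 21.7%, 18.2% and 20.4%, and 22% in the class of largest size, from 739 codons. Losses of over 4-fold were less even, at 123, 186, 78, 84 and 83 in the same order. The 186, of 200 to 326 codons, include 25 of 214, 20 of 213 and 15 of 205 codons. These groups of like coding size are described below, and their members cannot be read as independent. The length of the transcript outside its coding part went with the count of losses. Lower footprints were found in 25.3% of transcripts with at most 298 nt outside the coding part, then in 25.8%, 20.8% and 17.3%, and in 12.4% of those with at least 2120 nt. Losses of over 4-fold numbered 194, 165, 106, 60 and 29 in the same order. The share that rose stayed between 9.66% and 12.3%. The median log2 fold change was -0.01 in the class with the shortest such sequence and 0.15 in the class with the longest, and with library totals these were 0.10 and 0.26. In mRNA the medians were 0.02 and 0.52. Transcripts that fell by over 4-fold had a median of 389 nt outside the coding part, against 882 nt over all tested.

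The level in wild type also went with the outcome. By wild-type footprint level, which shares its libraries with the contrast and is a description, the share that fell went from 5.41% in the lowest class to 41.7% in the highest and the share that rose from 4.95% to 18.3%. Without wild-type b the 106 transcripts that fell in the lowest class were 20, and without Mael-/- b they were 56. By wild-type mRNA level, which the footprint contrast does not share, the share with lower footprints went from 2.5% in the lowest class through 8.13%, 15.5% and 26.2% to 49.3% in the highest, from 111 CPM up. Higher footprints were found in 7.97% of the lowest class and 8.44% of the highest. The median log2 fold change went from 0.38 in the lowest class to -0.38 in the highest. The mRNA medians, whose contrast does share these libraries, were 0.99 and -0.61. In wild type, the differences of library a from library b correlated between footprints and mRNA at 0.32. The order by wild-type mRNA level is therefore a description too. The lowest class also had the fewest counts to test, and its 49 transcripts with lower footprints were 23 without wild-type footprint library b. The ratio of footprints to mRNA in wild type, a measure of how heavily a transcript is translated, ran the other way. Among transcripts with the lowest ratio 33.8% fell and 2.4% rose, and among those with the highest 9.81% fell and 23.1% rose. The median footprint change was -0.35 in the former and 0.28 in the latter, and the mRNA medians were -0.91 and 0.96. The ratio shares wild-type libraries with both contrasts, so its order is a description.

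**Figure D4:**
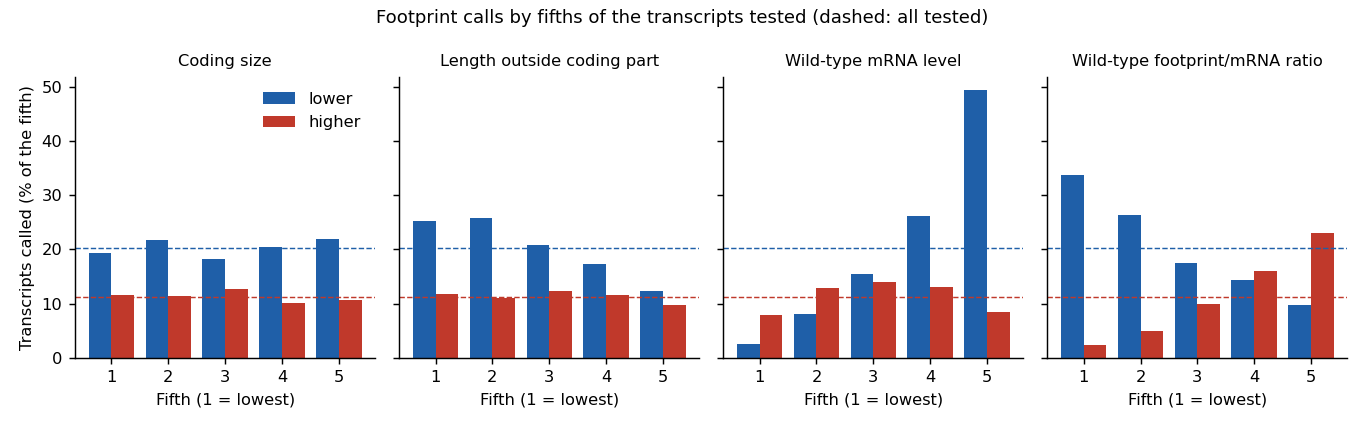
The percentage of transcripts tested whose footprints fell or rose in Mael-/- is shown for the 5 classes of each feature, with dashed lines at the background of 20.3 and 11.3 percent. Losses fall from 25.3% to 12.4% with the length outside the coding part and climb from 2.5% to 49.3% with the wild-type mRNA level.

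Some of the transcripts that fell furthest formed groups of like coding size. Among the 554 that fell by over 4-fold, 25 had 214 codons, 20 had 213 codons and 15 had 205 codons, together 60. In all, 42, 30 and 36 transcripts of these sizes were tested, the ones that fell by over 4-fold included. The 20 of 213 codons had median levels of 26.7 and 68.2 CPM in wild-type a and b, and 6.58 and 3 CPM in Mael-/- a and b. Medians of the 15 of 205 codons were 18.6 and 46.2 CPM in wild type and 4.75 and 3.6 CPM in Mael-/-. The 25 of 214 codons lay lower, at 4.79 and 9.11 CPM in wild type and 1.83 and 0.599 CPM in Mael-/-. With at most 5 and 1 counts in Mael-/- a and b, these 25 entered the test only through wild type, where they are high. So did the 20 of 213 codons, which had at most 5 counts, or 3 CPM, in Mael-/- b. The group of 205 codons ran down to 6 and 3 counts in Mael-/- a and b, and its lowest members entered that way too. The falls of these groups are therefore a description. In each group both Mael-/- medians were below both wild-type medians, and wild-type b was above wild-type a. All 60 were also lower in mRNA, with log2 fold changes between -3.02 and -1.95 there and between -3.84 and -2.01 in footprints. Lower mRNA was found in 16.5% of the 9627 transcripts tested in both assays. Among the 545 of these that fell by over 4-fold in footprints it was found in 89.2%. Keeping 1 transcript of each group with the same coding size and counts within 20% left 9169 tested, of which 1041 rose, 1895 fell and 472 fell by over 4-fold.

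**Figure D5:**
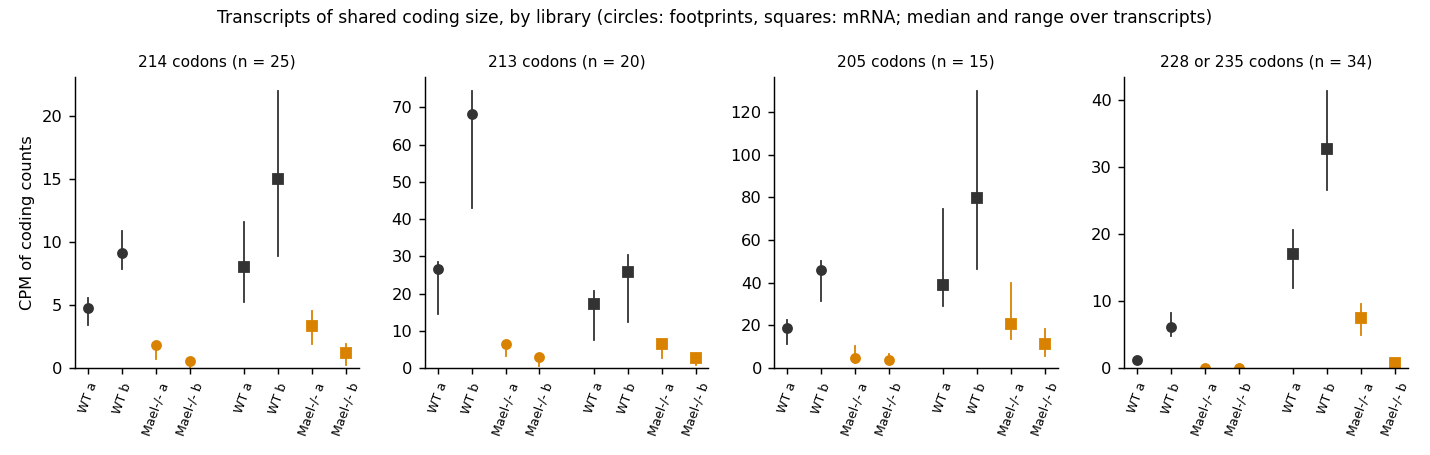
Footprint levels (circles) and mRNA levels (squares) in CPM are shown by library, as the median and range over transcripts on linear axes that differ between panels, for the transcripts of 213, 214 and 205 codons that fell by over 4-fold and for the 34 of 228 or 235 codons without footprints in Mael-/-. In footprints the medians of both Mael-/- libraries lie below those of both wild-type libraries in each group.

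Footprints were not found at all in either Mael-/- library for 51 transcripts with at least 20 counts in wild type. Of these, 34 had a coding size of 228 or 235 codons, with 24 and 10 transcripts. They held 3 to 8 counts in wild-type a, 16 to 27 in wild-type b and 0 in both Mael-/- libraries, where the floor of 3 counts is 1.1 CPM in Mael-/- a and 1.8 CPM in Mael-/- b. Wild-type b was the higher of the pair, with a median of 6.08 CPM against 1.2 CPM in wild-type a. None of the 34 entered the footprint test, because too few libraries had enough counts. Their mRNA was still counted in Mael-/-, at 28 to 55 counts in library a and 2 to 5 in library b, against 183 to 316 and 179 to 278 in wild type. In mRNA 27 of them were lower, by log2 fold changes of -3.03 to -2.64, beside 17.7 percent lower over all transcripts tested there. The rest of the 34 fell in mRNA by amounts within the same range and missed the threshold. The 34 have similar counts in each library and cannot be read as independent, so the 27 do not compare with that percentage. Of the 17 other transcripts among the 51, 2 were lower in footprints and 15 were not tested. With 0 counts in Mael-/-, those 2 entered the test only through wild type, so their calls are a description. The reverse, 20 or more counts in Mael-/- and 0 in wild type, was found for 2 transcripts, in each case with counts in 1 of the Mael-/- libraries only. The threshold is in counts and the wild-type libraries are deeper, so the 51 and the 2 are not comparable.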

How the data were processed

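The deposited tables hold unnormalised counts per Ensembl transcript that the authors made for each library. Tools listed in the submitters' processing notes are TopHat2 2.0.7, Bowtie2 2.0.6 and CASAVA 1.8, with build mm9, while the counting rule, strand use and the treatment of reads with several matches are not given in the sources used here. The size column of these files, judged from its values, holds codons less 20: 3 nt times the size plus 60 equals the transcript length in 2023 of 18286 transcripts and exceeds it by at most 1 nt. Coding sizes are given here as the size plus 20 codons, and the length outside the coding part is the rest of the transcript.

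Differences were fitted to the counts in edgeR 4.0.16 (R 4.3.3, limma 3.58.1) with its quasi-likelihood test, using TMM scaling, filterByExpr (minimum count 10) and Benjamini-Hochberg adjustment at 0.05. The terms were genotype alone for each assay's 4 libraries, and assay, genotype and their interaction over 8 libraries. No replicate block was used. The filter kept 53.5% of transcripts with a coding size. The mean levels in the text are CPM of deposited counts, with the SD over 2 libraries. DESeq2 1.42.0, other scalings, other filters and the removal of each library served as alternatives. Scripts were tested on simulated data. Python 3.11.15 with matplotlib 3.10.9 drew the figures.

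Named transcripts are the first 2 in each direction among transcripts that passed, averaged 5 CPM or more and did not overlap between genotypes, ranked by the smallest absolute log2 ratio over the pairs of libraries (0.5 CPM added). The abundant transcripts and the groups of like coding size are described beside this rule and were chosen after their values were seen. Transcripts, groups and lists were chosen with earlier results of these data known. Gene lists and cell type markers were not analysed here, because 0 transcript IDs matched a gene name.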

Additional observations from a re-analysis of the deposited data

Results flagged for a closer look

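In 4 transcripts footprints and mRNA passed their tests in opposite directions. In 3 of them footprints were higher and mRNA was lower in Mael-/-. The one of 377 codons held 48.9 and 48.9 CPM of footprints in wild type and 76.4 and 68.3 CPM in Mael-/-, with log2 fold changes of 0.46 in footprints and -1.05 in mRNA. Those of 295 and 479 codons changed by 0.97 and 1.00 in footprints and by -0.93 and -1.10 in mRNA. In the remaining 1, of 449 codons, footprints were lower and mRNA was higher. Its footprints were 537.6 and 638.3 CPM in wild type and 242.7 and 155.3 CPM in Mael-/-, and its mRNA 12.8 and 7.13 CPM in wild type and 36.2 and 31.7 CPM in Mael-/-. The log2 fold changes were -1.66 and 1.47, and their difference was -3.04 ± 0.455 (SE). The test of the difference itself gave an adjusted p of 0.602 with edgeR for each of the 4, so none of them passed it.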

How the results depend on the processing

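For footprints, the 1102 higher and 1988 lower became 1731 higher with library totals, 2199 with upper quartile scaling, 290 with DESeq2 and 100 in a fit over 8 libraries, which found 967 lower. Leaving out each library gave 690 to 775 higher and 1630 to 1963 lower. For mRNA, higher transcripts numbered 710 with RLE, 3287 with library totals and 610 with DESeq2. Leaving out each mRNA library gave 0 to 1349 higher and 0 to 2728 lower, with 0 without either wild-type library. For the difference between footprint and mRNA change, no filter gave 2 higher and 1 lower, DESeq2 gave 49 and 1, and leaving out each library gave 0 to 146 and 0 to 32. No direction of a named transcript reversed. The cause of these shifts was not tested. The alternatives for gene lists were not run, since no transcript had a gene name. With 2 libraries per genotype, and 1668197 counts in Mael-/- b, changes at low levels were the least well resolved.

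With a replicate block on the letters a and b, 771 transcripts were higher and 1723 lower in footprints, 2766 higher and 2654 lower in mRNA, and 0 differed between assays. The labels used here do not say what the letters mark, and 2 pairs are too few to settle it. The deviations of a from b correlated between the genotypes at -0.13 in footprints and at 0.26 in mRNA. Across assays, they correlated at -0.28 between wild-type footprints and Mael-/- mRNA. Between Mael-/- footprints and wild-type mRNA the correlation was -0.12. A crossed replicate block, added after seeing the data, gave 1450 higher and 2210 lower in footprints. A block that joins the footprint and mRNA libraries of the same genotype and letter, also added then, gave 0 for the difference between assays.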

Other observations

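Within a genotype, footprint and mRNA libraries of the same letter deviated together. Over 9429 transcripts, the difference of library a from library b correlated between the assays at 0.32 in wild type and at 0.29 in Mael-/-. The labels used here do not say that they share a lysate. The 14 transcripts nearly limited to wild-type b in footprints summed to 96.9 CPM there and to between 2.4 and 9.38 CPM in the other footprint libraries. In mRNA they summed to 300 CPM in wild-type b, 144 CPM in wild-type a, 66.1 CPM in Mael-/- a and 18.2 CPM in Mael-/- b, and 14 of 14 were highest in wild-type b. The transcript of this kind in Mael-/- b that entered the test, of 608 codons, held 0.98, 1.78, 2.78 and 129.5 CPM of mRNA in wild-type a, wild-type b, Mael-/- a and Mael-/- b.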
